A study of Mus musculus with 16 samples.

Results

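Iron handling was followed through 10 genes, chosen by name out of the 54532 genes of each expression table, and all 10 were found. They cover uptake (Tfrc, Slc11a2, Slc39a14, Steap4), the phagosome (Slc11a1), storage (Fth1, Ftl1), export (Slc40a1), heme breakdown (Hmox1) and iron sensing (Aco1). The RNA-seq libraries hold RNA of mouse lung endothelial cells (ECs). Magnetic beads were used to separate them, first by removing cells that carry the leukocyte protein CD45 and then by collecting cells that carry CD31. In the first experiment WT C57/BL6J males received saline (n = 4) or LPS, the bacterial outer membrane lipopolysaccharide, at 10 mg/kg (n = 6) into the trachea. In the second, Fgfr1 loxP/loxP littermates (n = 3) and Fgfr1 iΔEC/iΔEC mice (n = 3), which carry the same floxed alleles with VE-cadherin-CreERT2, were treated with tamoxifen and then all received LPS at 2 mg/kg. Lungs were taken after 24 h in every group. Cre in these mice is driven by the promoter of the endothelial gene Cdh5, and the second experiment has no saline group. The 2 tables were normalized separately, so levels are set side by side across them without a test. Reads on genes numbered 13478726 to 18807007 in the saline libraries and 17840221 to 19043015 in the LPS libraries. They numbered 15969575 to 17002788 in the loxP/loxP libraries and 16642177 to 16943522 in the iΔEC/iΔEC libraries. No label names the animal behind each library, so the p-values measure the spread between the libraries as labelled.

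Cells take up iron bound to transferrin through the transferrin receptor, move it out of the endosome as ferrous iron, store it inside ferritin shells and release it through ferroportin. Free iron can also enter through metal transporters, and iron is recovered from heme by heme oxygenases. Iron regulatory proteins bind a hairpin called the iron-responsive element (IRE) in some of these mRNAs. Bound near the start of the mRNA they block translation, and bound in the 3' UTR of the transferrin receptor mRNA they protect it from decay. In inflammation, macrophages are known to hold back iron from microbes.

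The IRE was searched for in the UTRs of protein-coding transcripts of GENCODE M21 (GRCm38). The pattern was a bulged C, an arm of 5 bases, the loop CAGTGN, in which N is any base, and a second arm whose 5 bases all pair with the first by A-T, G-C or G-T. It was read on the transcript strand only. It was present in the 5' UTR of 28 of 20529 genes (0.136%) and in the 3' UTR of 127 of 20893 genes (0.608%). Among the 10 iron handling genes it was found in 4. The hairpins are shown 5' to 3' in DNA letters, with the bulged C and the loop in capitals, because they mark which of the mRNAs measured below carry it. Those of the ferritins and of ferroportin lie in the 5' UTR.
Fth1, chr19:9982733-9982759, + strand: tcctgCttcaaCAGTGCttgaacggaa
Ftl1, chr7:45459780-45459806, - strand: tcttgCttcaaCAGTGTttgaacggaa
Slc40a1, chr1:45925466-45925492, - strand: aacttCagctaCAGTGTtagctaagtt
Tfrc held 4 in its 3' UTR, all on the + strand.
Tfrc, chr16:32631220-32631246: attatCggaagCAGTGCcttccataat
Tfrc, chr16:32631599-32631625: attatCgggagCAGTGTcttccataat
Tfrc, chr16:32631664-32631690: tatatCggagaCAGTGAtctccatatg
Tfrc, chr16:32631711-32631737: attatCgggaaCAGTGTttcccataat
With 4 of 5 pairs allowed, a match was also found in the 3' UTR of Slc11a2 (gccatCagagcCAGTGTgtttctatgg, chr15:100395154-100395180, - strand). At that looser setting 4.11% of genes hold a match in the 3' UTR. In Hmox1, Slc11a1, Slc39a14, Steap4 and Aco1 neither UTR held a match to this hairpin at either setting. RNA-seq measures mRNA level, so translation was not read here. In the coordinates of the deposited tables (GRCm38), the genes lie at chr16:32608920-32632794 (Tfrc, + strand), chr15:100387898-100425072 (Slc11a2, -), chr14:70303469-70351425 (Slc39a14, -), chr5:7960457-7982213 (Steap4, +) and chr1:74375195-74386062 (Slc11a1, +). Fth1 lies at chr19:9982703-9985092 (+), Ftl1 at chr7:45457944-45459884 (-), Slc40a1 at chr1:45908068-45926523 (-), Hmox1 at chr8:75093621-75100589 (+) and Aco1 at chr4:40143081-40198338 (+). All but Fth1 have the same ends in GENCODE M21.

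The isolated fraction was first checked against cell type markers, since a bulk library adds up all cells it contains. A lower or higher level in such a library can come from the number of cells of a type or from the RNA in each cell, and these cannot be told apart. Values are FPKM, in which fragments are divided by gene length and by a factor for each library. All 10 endothelial markers were detected in every library. Pecam1, which encodes CD31, was at 338.5 to 516.0 FPKM in saline and 233.6 to 443.9 FPKM in LPS, and Cdh5 (VE-cadherin) was at 669.3 to 792.2 and 245.3 to 519.9 FPKM. Summed FPKM of the 10 endothelial markers, of which Cldn5 was the most abundant, was 5429, 3276, 4066 and 3391 in saline 1 to 4 and ranged from 1434 to 3382 in LPS (median 2828). Of the 10, 6 fell and 0 rose at an adjusted p of 0.05 (limma with Benjamini-Hochberg adjustment), where 23.7% of all genes tested were lower and 29.5% higher.

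Leukocyte and macrophage markers were higher in the LPS libraries in spite of the CD45 depletion. The 6 leukocyte markers, led by Coro1a, summed to 227.8, 141.0, 76.3 and 120.3 FPKM in saline 1 to 4 and to 710.9 to 1797 FPKM in LPS (median 1274), and all 6 rose. In LPS 1 the leukocyte sum of 1797 FPKM was above the endothelial sum of 1434 FPKM. The 8 macrophage markers summed to 31.5, 18.7, 23.0 and 20.3 FPKM in saline and to 327.8 to 745.5 FPKM in LPS (median 520.3), where Csf1r was the most abundant. Of them 6 rose (Adgre1, Csf1r, Cd68, Marco, C1qa, Cd163), Siglecf fell and Mrc1 did not pass, and Marco was at 0 in saline 1. Cd163, at a mean of 0.0725 FPKM in saline and 0.899 FPKM in LPS, passed the filter of a mean of 0.5 FPKM only through LPS. The 8 neutrophil markers, led by Retnlg in the saline libraries and by Retnlg or Csf3r in the LPS libraries, summed to 284.0, 23.6, 88.9 and 30.5 FPKM in saline, so that saline 1 stood inside the LPS range of 135.7 to 520.9 FPKM (median 293.8). Among them 3 rose (Ly6g, Cxcr2, Csf3r) and Elane, which passed the filter only through saline, fell, so that the share that rose is near the 29.5% of all genes. Camp (-0.29), Mpo (-0.81), Ngp (1.33) and Retnlg (1.75) did not pass. Mpo was at 0 in saline 3 and Ly6g at 0 in saline 4. Globin genes of the 6 erythroid markers also rose (3 of 4 tested), with a summed FPKM of 6.36 to 25.6 in saline and 21.0 to 74.3 in LPS, led by Hba-a1 or Hbb-bs, while the other 2 of the 6 were too low to test. The epithelial markers, led by Sftpc, fell in 3 of 9 tested and the lymphocyte markers in 3 of 5, with none higher. The fibroblast markers fell in 4 of 6 tested and the mural markers in 2 of 7, again with none higher. For the epithelial and mural lists this is near the 23.7% of all genes that were lower. The part of these cells in the iron results below was not tested.

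**Figure D1:**
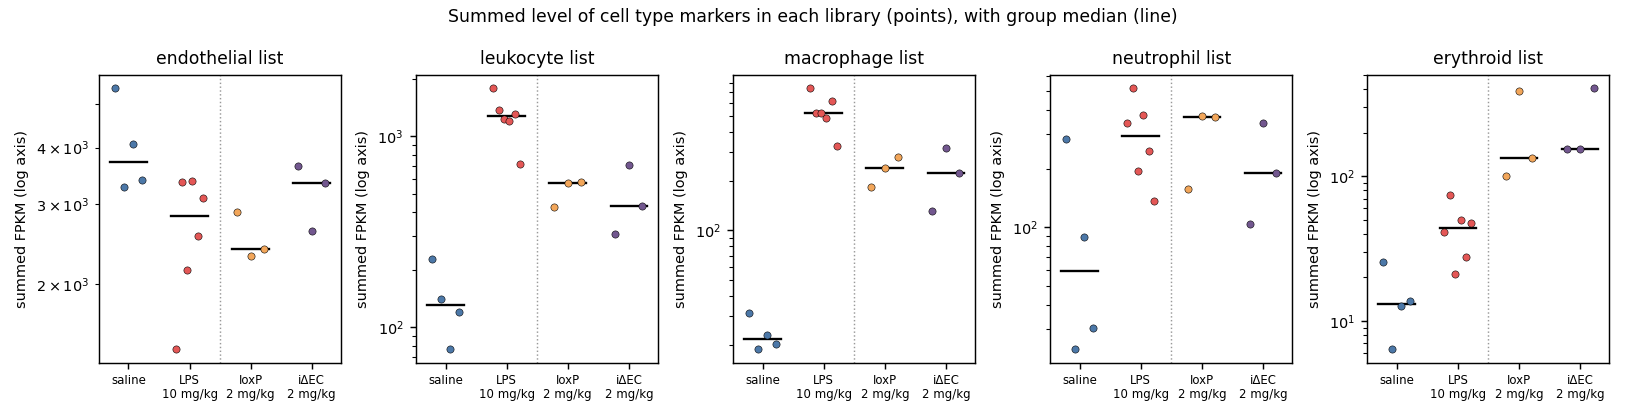
Summed FPKM of 5 marker lists on a log axis in each library (points) by group, with the group median (line); the dotted line separates tables that were normalized separately. The leukocyte and macrophage sums of the 6 LPS libraries lie above all 4 saline libraries, and the neutrophil sum of saline 1 lies inside the LPS range.

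LPS at 10 mg/kg was accompanied by a higher level of every one of the iron handling genes. All 10 passed an adjusted p of 0.05 in the higher direction (limma on log2(FPKM + 1), Benjamini-Hochberg adjustment over 14893 genes), against 29.5% of all genes tested that were higher and 53.2% that changed in either direction. At an unadjusted p under 0.05 stood 59.6% of all genes. In all 10 the lowest LPS library lay above the highest saline library, as in 22.7% of all genes. When a log2 fold change of 1 or more was required as well, 6 of 10 were called higher (Fth1, Ftl1, Hmox1, Slc11a1, Slc39a14, Steap4), against 11.9% of all genes. The median log2 fold change was 1.88 over the 10 genes and 0.01 over all genes. Without saline 1, which stood high for several of them, 7 of 10 were called with the fold limit and 9 of 10 without it. At that setting 1947 and 4606 of the 14767 genes tested were higher.

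**Figure D2:**
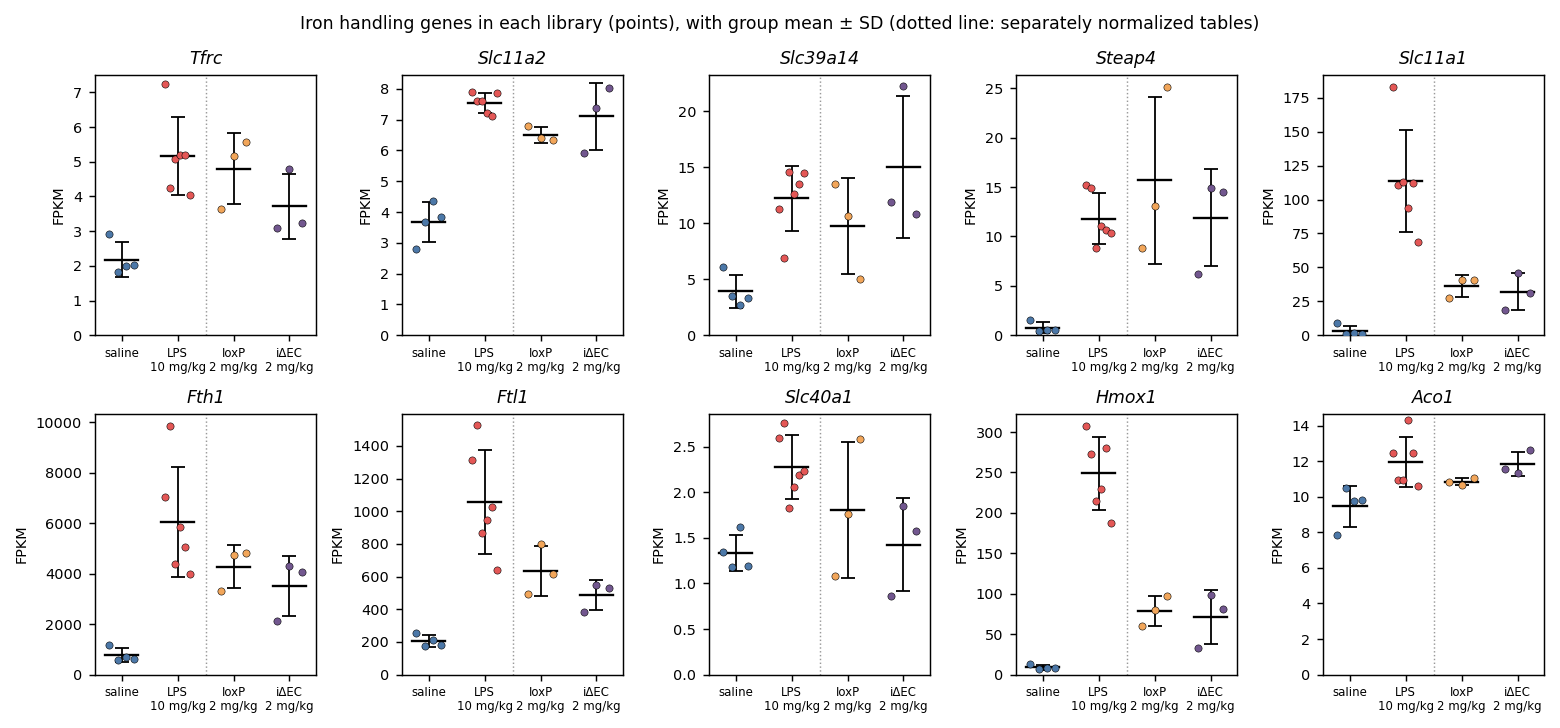
FPKM of the 10 iron handling genes in each library (points) with the group mean ± SD, on axes that start at 0; the dotted line separates the saline and LPS libraries from the loxP/loxP and iΔEC/iΔEC libraries, which were normalized separately. In every panel the 6 LPS points lie above the 4 saline points, while the points of the second experiment overlap in all panels except Aco1.

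Among the genes of iron uptake, the transferrin receptor gene Tfrc rose. It stood at 2.91, 1.81, 1.98 and 2.01 FPKM in saline 1 to 4 and at 4.04 to 7.24 FPKM in LPS (median 5.15). The groups did not overlap, and LPS 1 was the highest library. The log2 fold change on the log2(FPKM + 1) scale was 0.95 ± 0.15 (SE, limma adjusted p = 0.00043), and mean FPKM was 2.37 times that of saline. This fold change passed the limit of 1 without saline 1 (1.05), without LPS 6 (1.00), on recovered reads (limma-voom, 1.27), with a pseudocount of 0.1 (1.21) and with scaling on the endothelial markers (1.49). Its mRNA is the one with 4 IRE hairpins in the 3' UTR printed above.

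Slc11a2, which encodes the divalent metal transporter that carries ferrous iron out of the endosome, stood at 2.81, 3.69, 4.37 and 3.85 FPKM in saline and at 7.11 to 7.91 FPKM in LPS (median 7.60). The LPS libraries were close to each other, and all lay above the saline libraries. On the log2 scale it rose by 0.88 ± 0.11 (SE, limma adjusted p = 7.57e-05), short of the fold limit, which it passed on recovered reads (1.04), with a pseudocount of 0.1 (1.03) and with scaling on the endothelial markers (1.47). Part of Slc11a2 overlaps the gene Gm5475 on the other strand, and whether strand was used in counting is not given in the sources used here.

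Slc39a14, which encodes the zinc and iron importer ZIP14, stood at 6.09, 3.55, 2.69 and 3.34 FPKM in saline and at 6.89 to 14.6 FPKM in LPS (median 13.1). Saline 1 was the highest saline library and LPS 2 the lowest LPS library, and the groups came close there without overlapping. It rose by 1.44 ± 0.22 on the log2 scale (SE, limma adjusted p = 0.000349). Steap4, a metalloreductase that turns ferric into ferrous iron, had the lowest mean of the 10 genes in saline, at 1.56, 0.415, 0.568 and 0.483 FPKM (29 to 65 reads). In LPS it stood at 8.79 to 15.2 FPKM (median 10.9). Its change on the log2(FPKM + 1) scale was 2.89 ± 0.20 (SE, limma adjusted p = 1.65e-06). As 1 FPKM is added before the logarithm, this understates the change of so low a gene, whose mean FPKM in LPS was 15.6 times that of saline and whose log2 fold change was 4.23 on recovered reads.

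Slc11a1 had the largest log2 fold change of the 10. It encodes NRAMP1, a metal transporter in the phagosomes of macrophages and neutrophils. It stood at 8.71, 1.10, 1.51 and 0.960 FPKM in saline 1 to 4 and at 69.0 to 182.9 FPKM in LPS (median 111.6). Saline 1 was apart from the other saline libraries, and the highest LPS library was LPS 1. The log2 fold change was 5.12 ± 0.42 (SE, limma adjusted p = 5.26e-06), or 5.66 without saline 1. Both libraries had the highest leukocyte and macrophage sums of their groups. These were 227.8 and 31.5 FPKM in saline 1 and 1797 and 745.5 FPKM in LPS 1. Among the macrophage markers, Marco (0 FPKM), Mrc1 (0.688) and Siglecf (0.596) were instead lower in saline 1 than in the other saline libraries. Saline 1 also had the highest neutrophil (284.0 FPKM) and endothelial (5429 FPKM) sums of its group. LPS 1 had a neutrophil sum of 340.9 FPKM, which was not the highest of its group. The part of these cells in the result was not tested.

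The ferritin mRNAs had the highest levels of the 10 genes. Fth1 encodes the heavy chain, which oxidizes iron, and Ftl1 the light chain, which helps to build the core. Fth1 stood at 1167, 592, 678 and 613 FPKM in saline 1 to 4, and saline 1 was apart from the rest. In LPS it stood at 3966 to 9859 FPKM (median 5452). Its log2 fold change was 2.97 ± 0.34 (SE, limma adjusted p = 5.15e-05). By mean FPKM it ranked 23 among the 14893 genes tested in saline and 1 in LPS, and its reads made up 0.0603% to 0.0992% of all reads on genes in saline and 0.348% to 0.764% in LPS. Ftl1 stood at 256.3, 172.9, 211.4 and 181.1 FPKM in saline and at 642.8 to 1528 FPKM in LPS (median 987.3), so the groups were apart, and its change on the log2 scale was 2.32 ± 0.25 (SE, limma adjusted p = 3.46e-05).

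Ferritin pseudogenes can share reads with these genes. Ftl1-ps1 held 84 to 174 reads per saline library and 377 to 698 per LPS library, with a log2 fold change of 2.06. Ftl1 held 4544 to 5127 and 16406 to 33228 reads in the same groups. Ftl1 also overlaps Gm22133 on the same strand and Gm10252 on the other. Fth-ps2, Fth-ps3 and Ftl2-ps held at most 13 reads in any library. How the counting treated reads with several alignments is not given in the sources used here, so the division between Ftl1 and its copies is uncertain.

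Slc40a1, which encodes ferroportin, the iron exporter, was low in all libraries. It stood at 1.34, 1.19, 1.62 and 1.19 FPKM in saline 1 to 4 (160 to 260 reads) and at 1.82 to 2.77 FPKM in LPS (299 to 431 reads, median 2.22). The LPS libraries lay above the saline libraries by a small margin at saline 3. The log2 fold change was 0.49 ± 0.12 (SE, limma adjusted p = 0.00474). At so low a level the added 1 FPKM shrinks the change, and mean FPKM was 1.71 times that of saline (0.77 as log2). The ferritin mRNAs, with the same kind of 5' UTR hairpin, stood at 7.91 (Fth1) and 5.14 (Ftl1) times their mean FPKM in saline.

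Hmox1 encodes the inducible heme oxygenase, which opens the heme ring and frees its iron. It stood at 12.8, 6.92, 7.84 and 7.98 FPKM in saline 1 to 4 and at 187.0 to 307.5 FPKM in LPS (median 251.5). The groups were far apart, and even the lowest LPS library was above the highest saline library. The log2 fold change was 4.67 ± 0.19 (SE, limma adjusted p = 1.34e-07), and mean FPKM was 28.0 times that of saline. Between the settings tried it ranged from 4.34 with quantile normalization to 5.35 with scaling on the endothelial markers.

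Aco1 encodes the cytosolic aconitase that becomes iron regulatory protein 1 when it lacks its iron-sulfur cluster. It stood at 7.84, 10.5, 9.76 and 9.81 FPKM in saline 1 to 4 and at 10.6 to 14.4 FPKM in LPS (median 11.7). Saline 2 and LPS 6 nearly met. The log2 fold change of 0.31 ± 0.12 (SE, limma adjusted p = 0.0424) was the smallest of the 10. The call was lost without saline 1 (0.23), saline 3 (0.32), saline 4 (0.33), LPS 1 (0.30), LPS 4 (0.26) or LPS 5 (0.30), with limma adjusted p from 0.0676 to 0.0989. It was also lost with scaling on total reads (0.12, adjusted p = 0.463), with quantile normalization (0.12, adjusted p = 0.388) and with no filter on low values (adjusted p = 0.0653).

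With scaling on the endothelial markers the median change over all genes moved from 0.01 to 0.57 on the log2 scale, and with scaling on total reads it moved to -0.15. Relative to that median Aco1 stood at 0.29 with the main scaling, 0.40 with the endothelial scaling, 0.27 with total reads and 0.20 with quantile normalization. For Slc40a1 the same differences were 0.47, 0.37, 0.51 and 0.65. All 10 log2 fold changes were above 0 under each scaling.

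**Figure D3:**
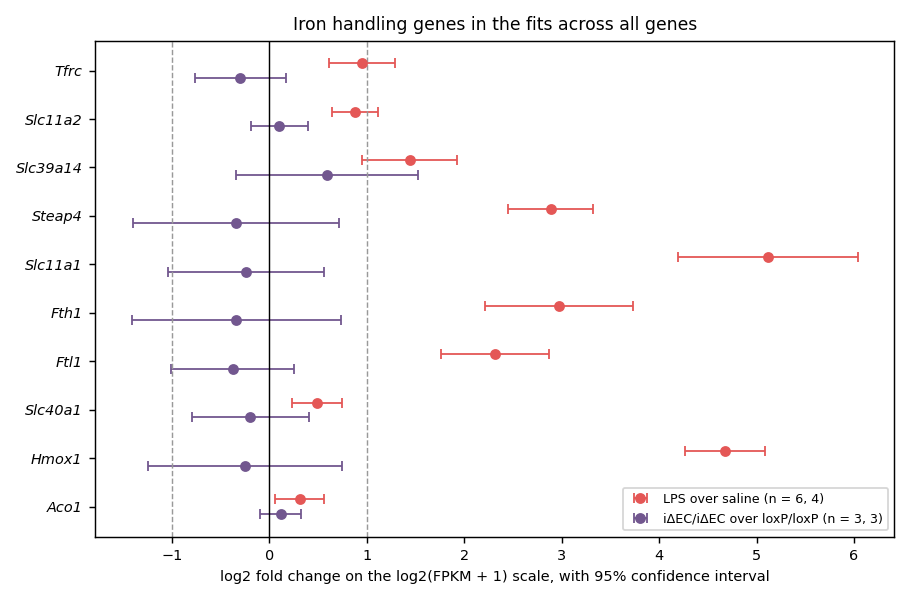
Log2 fold change on the log2(FPKM + 1) scale (points) with 95% confidence intervals (bars) for the 10 iron handling genes in LPS over saline libraries and in iΔEC/iΔEC over loxP/loxP libraries; dashed lines mark log2 fold changes of -1 and 1. All intervals of the LPS comparison lie above 0, from 0.31 for Aco1 to 5.12 for Slc11a1, and all intervals of the genotype comparison include 0.

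The order of the levels, compared as FPKM and thus per length, differed between the groups. In saline Fth1 (762 ± 272 FPKM, SD, n = 4) stood above Ftl1 (205 ± 38), followed by Aco1 (9.47 ± 1.14) and Hmox1 (8.88 ± 2.64), whose libraries overlapped. Slc39a14 (3.92 ± 1.495) came next and lay below every value of Hmox1. Slc11a2 (3.68 ± 0.65), Slc11a1 (3.07 ± 3.77) and Tfrc (2.18 ± 0.49) followed, and each overlapped the gene before it. Slc40a1 (1.33 ± 0.20) lay below every value of Tfrc, and its range overlapped that of Steap4 (0.756 ± 0.538). In LPS Fth1 (6030 ± 2172 FPKM, SD, n = 6) and Ftl1 (1055 ± 319) again came first, but Hmox1 (248.8 ± 45.6) and Slc11a1 (113.7 ± 37.9) came next, each apart from its neighbours. Slc39a14 (12.2 ± 2.9), Aco1 (11.97 ± 1.42) and Steap4 (11.8 ± 2.6) could not be ordered beyond their spread. Slc11a2 (7.55 ± 0.33) and Tfrc (5.17 ± 1.13) overlapped at LPS 1, and Slc40a1 (2.28 ± 0.35) was the lowest.

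Ratios between related genes, which depend little on how a library is scaled, were compared with 5 two-sided exact permutation tests. Each ratio is log2 of (FPKM + 1) of the first gene over that of the second. Fth1 rose more than Ftl1, and their ratio was 1.85 ± 0.23 (SD, n = 4) in saline and 2.50 ± 0.16 (SD, n = 6) in LPS, with the groups apart (difference 0.65, exact permutation p = 0.00952, adjusted 0.0159). Hmox1 over Hmox2, the constitutive heme oxygenase, went from -0.36 ± 0.52 to 3.18 ± 0.18 (difference 3.54, exact permutation p = 0.00952, adjusted 0.0159). Slc11a1 over its relative Slc11a2 went from -0.55 ± 1.27 to 3.69 ± 0.45 (difference 4.24, exact permutation p = 0.00952, adjusted 0.0159), and saline 1, at 1.35, was the saline library nearest to the LPS range. With saline 1 left out that difference was 4.87.

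The ratio of uptake to export, Tfrc over Slc40a1, was 0.44 ± 0.23 (SD) in saline and 0.90 ± 0.28 (SD) in LPS, and the groups overlapped (difference 0.46, exact permutation p = 0.0381, adjusted 0.0381). This call was lost with a pseudocount of 0.1 (adjusted exact permutation p = 0.0571). It was also lost without saline 2 (0.44), saline 3 (0.38), saline 4 (0.47), LPS 1 (0.40), LPS 3 (0.42), LPS 4 (0.44) or LPS 5 (0.45), at adjusted exact permutation p from 0.0635 to 0.0952. Aco1 over Ireb2, the gene of iron regulatory protein 2, was 0.01 ± 0.11 in saline and 0.38 ± 0.29 in LPS, again with overlap (difference 0.37, exact permutation p = 0.0381, adjusted 0.0381). That call was lost without saline 1 (0.32), saline 2 (0.39), saline 3 (0.40), saline 4 (0.38), LPS 1 (0.39), LPS 2 (0.32), LPS 4 (0.29), LPS 5 (0.35) or LPS 6 (0.42), at adjusted exact permutation p from 0.0635 to 0.0952.

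**Figure D4:**
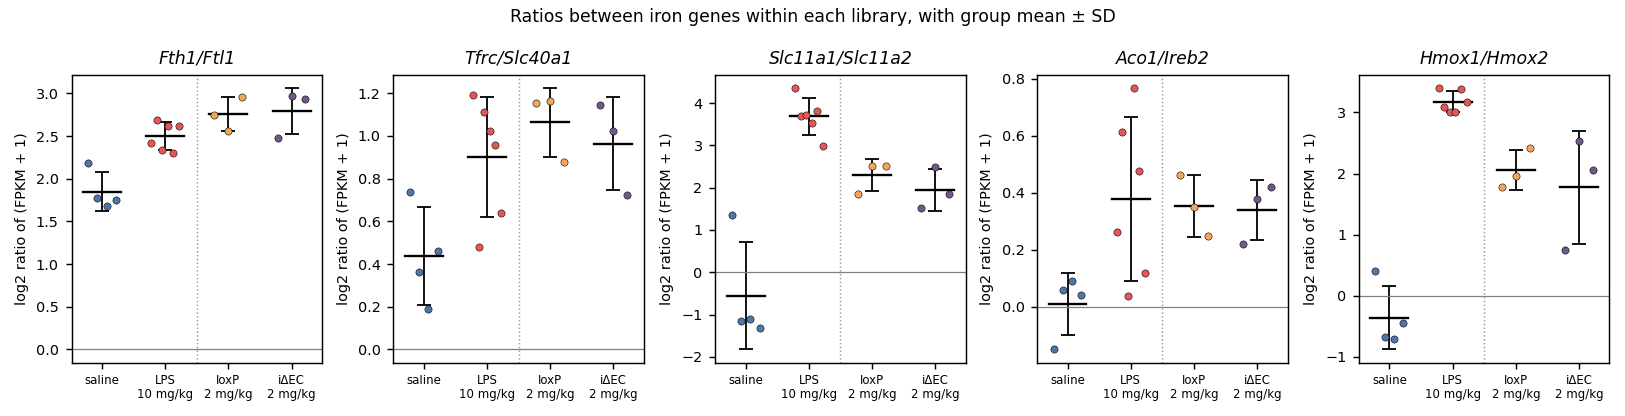
Log2 ratio of (FPKM + 1) for 5 pairs of iron genes in each library (points), with the group mean ± SD; the dotted line separates tables that were normalized separately. For Fth1/Ftl1, Slc11a1/Slc11a2 and Hmox1/Hmox2 all 6 LPS libraries lie above all 4 saline libraries, and in the second experiment the groups overlap in each panel.

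The rest of the pathway was read from 51 other iron and heme genes grouped by role, of which 41 could be tested. Of these, 17 rose and 6 fell past an adjusted p of 0.05, against 29.5% and 23.7% of all genes, and 10 rose and 1 fell with the fold limit, against 11.9% and 6.79%. The median log2 fold change was 0.34 over the 41 genes. The largest changes were those of Lcn2 and Hp, both of extracellular binding. In that list 4 of 6 rose and 0 fell, where 29.5% and 23.7% of all genes did. Of the 4, Cd163 passed the filter only through LPS. Lcn2 encodes lipocalin 2, which captures bacterial siderophores. It stood at 21.5, 3.67, 7.54 and 3.53 FPKM in saline and at 741.5 to 1818 FPKM in LPS, so that it rose by 7.25 ± 0.43 on the log2 scale (SE, limma adjusted p = 8.63e-07). Hp encodes haptoglobin, which binds free hemoglobin, and stood at 94.3, 10.9, 18.1 and 7.50 FPKM in saline and 325.7 to 888.3 FPKM in LPS (log2 fold change 4.72 ± 0.58). Saline 1 was the highest saline library for both.

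In heme turnover 4 of 8 tested genes were higher and 1 lower, where 29.5% and 23.7% of all genes were. Blvrb and Blvra encode biliverdin reductases, which work after heme oxygenase. They went from 3.49 ± 0.48 to 17.9 ± 4.7 FPKM (SD) and from 5.33 ± 1.18 to 16.02 ± 3.95 FPKM, with log2 fold changes of 2.04 and 1.42. Abcg2, a transporter that can export heme, was at -0.43 on the log2 scale (limma adjusted p = 0.0276), a call that was lost without saline 3 (-0.39), saline 4 (-0.39) or LPS 5 (-0.43) and with no filter on low values (adjusted p = 0.056), and that turned to 0.20 with scaling on the endothelial markers, which raises all genes. Relative to the median of all genes it was at -0.45 with the main scaling and -0.37 with that one. In mitochondrial iron, clusters and heme synthesis 3 of 9 rose, near the share of all genes, and 0 fell. Alas1, the first enzyme of heme synthesis outside red cells, went from 14.7 ± 4.8 to 33.1 ± 4.7 FPKM (log2 fold change 1.15).

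Export and ferroxidases were mixed. Cp, whose product ceruloplasmin oxidizes iron as it leaves cells, went from 3.75 ± 0.93 to 13.5 ± 2.8 FPKM (log2 fold change 1.61), and Heph, another ferroxidase, from 3.87 ± 0.33 to 2.30 ± 0.64 FPKM (-0.58, or -0.04 with scaling on the endothelial markers, which relative to the median of all genes are -0.60 and -0.62). Hamp, which encodes hepcidin, the hormone that removes ferroportin from the cell surface, was very low, at 0 to 0.496 FPKM in saline (0 to 4 reads) and 0.554 to 3.58 FPKM in LPS (4 to 27 reads, log2 fold change 0.90, limma adjusted p = 0.0175, or 0.0511 with no filter on low values). Its mean in saline was under the filter of 0.5 FPKM, so it was tested only through the group in which it was high, and the same is true of Cd163 among the 17 that rose. In the hepcidin pathway 0 of 5 tested genes rose and 3 fell (Bmp6, Smad6 and Smad7), where 29.5% of all genes rose and 23.7% fell. Bmp6, the endothelial ligand that drives hepcidin production in the liver, stood at 168.9, 187.3, 190.7 and 193.8 FPKM in saline and 54.0 to 108.1 FPKM in LPS, with the groups apart and a change of -1.17 ± 0.18 on the log2 scale (SE, limma adjusted p = 0.000281), or -0.45 with scaling on the endothelial markers (adjusted p = 0.0433). Relative to the median of all genes it was at -1.19 with the main scaling and -1.02 with that one. The 10 endothelial markers ranged from -0.12 (Emcn) to -1.63 (Kdr), with a median of -0.71, and the part of this in the result was not tested. Smad6, an inhibitor of the same signal, was at -0.96 on the log2 scale (limma adjusted p = 0.0313), a call that was lost without saline 1 (-0.69), without LPS 3 (-0.89), with no filter on low values (adjusted p = 0.0793) and with scaling on the endothelial markers (-0.23). Smad7, a related inhibitor, was at -0.79 (limma adjusted p = 0.00312), and with that scaling at -0.08 (adjusted p = 0.735). Relative to the median of all genes, Smad6 was at -0.97 and -0.81 and Smad7 at -0.80 and -0.65 under the main and the endothelial scaling. Id1, a target of the same signal, was at 0.55 (limma adjusted p = 0.117), and it was called higher with scaling on the endothelial markers (1.28, adjusted p = 0.000142) and without LPS 1 (0.72, adjusted p = 0.0224), but was at -0.04 with quantile normalization.

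In iron sensing Fbxl5, whose product targets iron regulatory proteins for degradation, rose from 9.19 ± 3.99 to 26.4 ± 6.3 FPKM (log2 fold change 1.47, limma adjusted p = 0.000311), while Ireb2 had a log2 fold change of -0.06 (adjusted p = 0.696). Among the transferrin genes Hfe, a partner of the transferrin receptors, was the 1 of 3 tested that rose (0.86), near the 29.5% of all genes that did. In metal import and reduction 1 of 2 tested genes fell, where 23.7% of all genes did, and 0 rose. This was the ferric reductase gene Cybrd1, which went from 1.11 ± 0.17 to 0.186 ± 0.092 FPKM (-0.83 on the log2(FPKM + 1) scale, with a mean FPKM of 0.168 times that of saline). It passed the filter only through saline. Among storage and chaperones 2 of 3 rose, where 29.5% of all genes did, the iron chaperone genes Pcbp1 (0.74) and Pcbp2 (0.34), but with quantile normalization these were at 0.09 and -0.06. The call of Pcbp2 was also lost with scaling on total reads (0.14) and without saline 2 (0.30), saline 4 (0.29) or LPS 4 (0.29). Ncoa4, which delivers ferritin to lysosomes, had a log2 fold change of 0.15 (adjusted p = 0.407), and Ftmt, mitochondrial ferritin, was at 0 in all libraries.

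**Figure D5:**
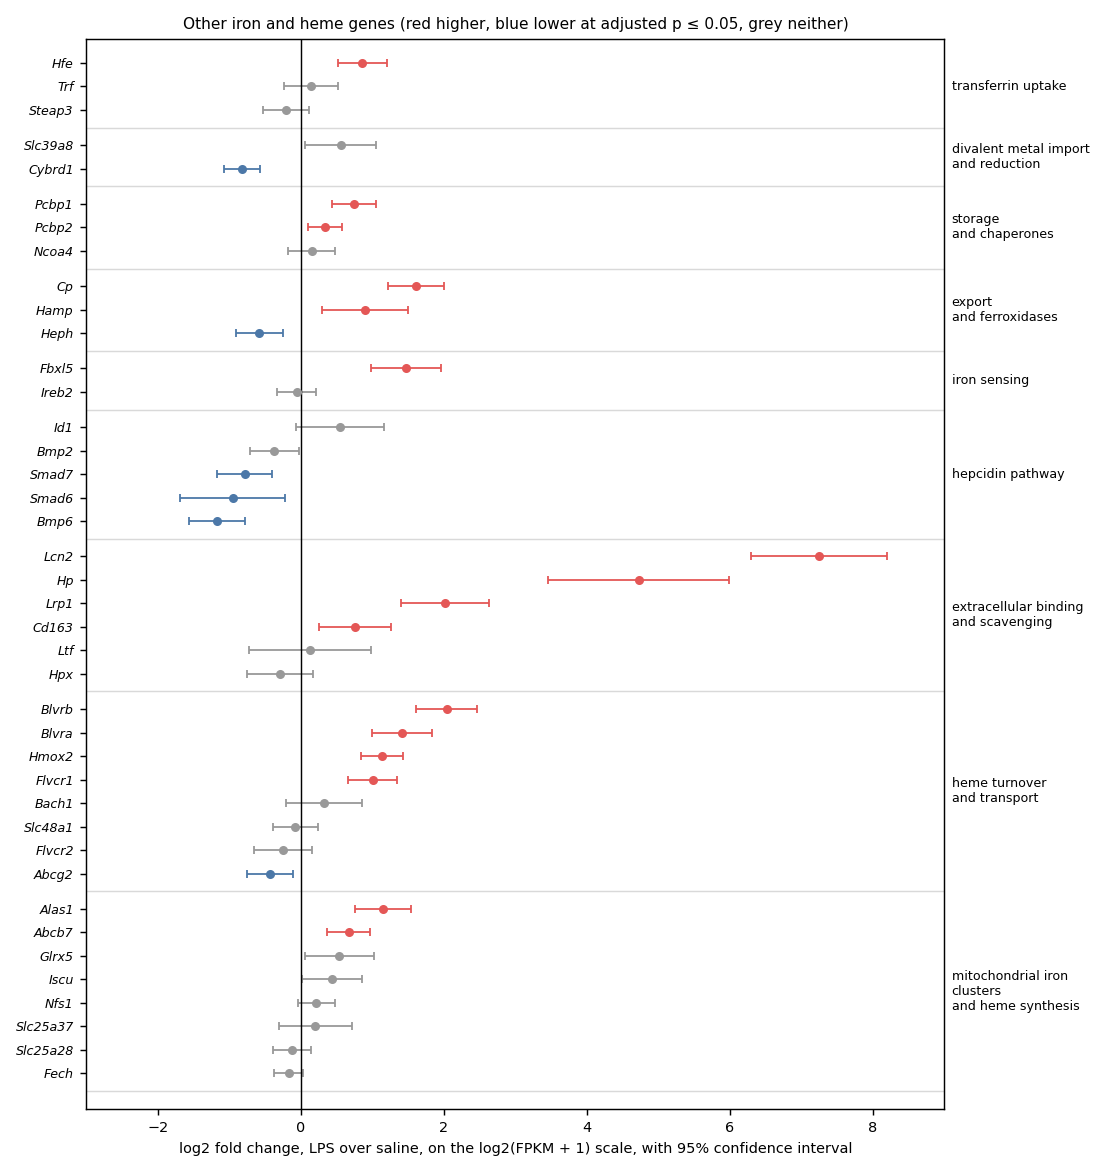
Log2 fold change on the log2(FPKM + 1) scale of LPS over saline (points) with 95% confidence intervals (bars) for 40 of the 41 other iron and heme genes tested, grouped by role; red marks the 16 plotted genes that were higher, blue the 6 that were lower at an adjusted p at or under 0.05, and grey the rest. Lcn2 at 7.25 and Hp at 4.72 stand farthest to the right, and 3 of the 6 lower genes are in the hepcidin pathway.

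The second experiment asked whether the loss of endothelial Fgfr1 changed these genes while all mice were under LPS. Fgfr1, which checks the labels, stood at 2.90, 2.91 and 2.59 FPKM in loxP/loxP 1 to 3 and at 0.683, 1.41 and 1.15 FPKM in iΔEC/iΔEC 1 to 3, so the groups were apart in the direction of the genotype. Its log2 fold change was -0.88 ± 0.16 (SE, limma, unadjusted p = 0.00103 and adjusted p = 0.962). The count covers the whole gene, which includes exons outside any deleted part. By limma 0 of 14945 genes passed an adjusted p of 0.05 (0.0% in either direction), with 661 genes (4.42%) at an unadjusted p under 0.05, and limma-voom on recovered reads also called 0.

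None of the 10 iron handling genes was called between the genotypes, with limma adjusted p from 0.962 to 0.969, or 0.646 to 0.851 with the replicate number as a block. Log2 fold changes ranged from -0.38 for Ftl1 to 0.59 for Slc39a14, and 3 of the 10 were above 0. Set side by side by replicate number, iΔEC/iΔEC was below loxP/loxP in 3 of 3 pairs for Tfrc, Fth1 and Ftl1, as in 12.8% of all genes, and above it in 3 of 3 for Aco1, as in 18.0%. The median was -0.25, and it was 0.01 over all genes. Marker lists moved alongside without a call, as 1 of 6 leukocyte, 0 of 7 macrophage, 0 of 6 neutrophil and 0 of 10 epithelial markers were above 0 (medians -0.21, -0.10, -0.48 and -0.55), while 9 of 10 endothelial markers were (median 0.29). So were 0 of 6 lymphocyte, 2 of 6 fibroblast, 2 of 7 mural and 4 of 5 erythroid markers (medians -0.42, -0.23, -0.06 and 0.30). Their part in the result was not tested. The groups were apart in 1 gene, Aco1, which was higher in iΔEC/iΔEC, against 10.2% of all genes, with 6.1% above and 4.07% below. Aco1 stood at 10.8, 10.7 and 11.1 FPKM in loxP/loxP and 11.6, 11.3 and 12.6 FPKM in iΔEC/iΔEC, a log2 fold change of 0.11 ± 0.09 (SE, 95% interval -0.10 to 0.32).

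Of the 10 genes 8 had their lowest value of the second experiment in iΔEC/iΔEC 1, all but Slc39a14 and Aco1. Fth1 stood at 3295, 4721 and 4823 FPKM in loxP/loxP and at 2134, 4303 and 4045 FPKM in iΔEC/iΔEC, with a log2 fold change of -0.34 and a 95% interval of -1.42 to 0.74. Hmox1 stood at 59.5, 79.3 and 97.5 FPKM and at 33.2, 98.8 and 81.6 FPKM (-0.26, interval -1.25 to 0.74). Slc11a1 stood at 27.2, 41.1 and 40.9 FPKM and at 18.7, 46.1 and 31.5 FPKM (-0.24, interval -1.04 to 0.56). iΔEC/iΔEC 1 also had the highest endothelial sum (3645 FPKM against 2304 to 3340 in the other 5 libraries). It had the lowest leukocyte sum (306.3 against 428.0 to 706.8) and the lowest macrophage sum (131.5 against 184.1 to 320.8). Its neutrophil (103.8 FPKM), epithelial (428.7), fibroblast (13.1) and mural (49.2) sums were the lowest too. Its lymphocyte (41.9) and erythroid (153.8) sums were not. Without iΔEC/iΔEC 1 the log2 fold changes of Hmox1 and Slc11a1 were 0.21 and 0.09. The part of these cells in the result was not tested.

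Ftl1 stood at 491.1, 797.3 and 618.5 FPKM in loxP/loxP and 381.8, 548.8 and 528.1 FPKM in iΔEC/iΔEC (-0.38, interval -1.01 to 0.25). Slc39a14 stood at 13.6, 10.7 and 5.06 FPKM against 11.9, 22.3 and 10.8 FPKM (0.59, interval -0.34 to 1.53). Steap4 stood at 8.84, 13.1 and 25.2 FPKM against 6.24, 14.9 and 14.5 FPKM (-0.34, interval -1.40 to 0.72). All these intervals are from the fit without the replicate number. Those of Fth1, Ftl1, Hmox1, Slc11a1, Slc39a14 and Steap4 reach past 1 or -1, so a change of that size lies within the error of that fit. With the replicate number as a block, these genes had the same log2 fold changes and a smaller unadjusted limma p. It was 0.0683 against 0.197 for Ftl1, 0.0778 against 0.174 for Slc39a14 and 0.303 against 0.477 for Fth1. Intervals of the blocked fit are not given here and may not reach as far. Without the block the other intervals were narrower, at -0.77 to 0.16 for Tfrc, -0.80 to 0.40 for Slc40a1 and -0.19 to 0.40 for Slc11a2. The added 1 FPKM shrinks the change of such low genes, and at the loxP/loxP mean a fall to 50% would be -0.56 on this scale for Slc40a1, inside its interval, and -0.77 for Tfrc, at the edge of its interval.

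None of the 5 ratios passed the test between the genotypes. With 3 libraries against 3 the two-sided exact permutation test cannot go under 0.1, and the 5 ratios had an adjusted exact permutation p of 0.9 each. The largest difference was -0.34 for Slc11a1 over Slc11a2 (exact permutation p = 0.2), with overlapping groups. This ratio and Tfrc over Slc40a1 were lower in iΔEC/iΔEC in 3 of 3 pairs of the same number, but 3 pairs cannot give an exact sign-flip p under 0.25. Of the other iron and heme genes 0 of 39 tested were called. Those with the smallest p were the heme transporter gene Slc48a1 (log2 fold change -0.19), Bmp6 (0.63) and the metal importer gene Slc39a8 (-0.46), each with a limma adjusted p of 0.962. Slc48a1 was the 1 gene of the 39 whose groups were apart, as they were in 10.2% of all genes.

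The levels of the second experiment, set beside the first without a test, lay between saline and the higher dose for several genes. Hmox1 was at 78.8 ± 19.0 FPKM (SD, n = 3) in loxP/loxP, with 8.88 ± 2.64 in saline and 248.8 ± 45.6 in LPS at 10 mg/kg. Slc11a1 was at 36.4 ± 8.0, with 3.07 ± 3.77 and 113.7 ± 37.9. Steap4 was instead above both means, at 15.7 ± 8.5 FPKM, with 0.756 ± 0.538 and 11.8 ± 2.6. Its place above LPS rests on loxP/loxP 3, at 25.2 FPKM, as loxP/loxP 1 and 2 stood at 8.84 and 13.1 FPKM. Dose, genotype and tamoxifen differ between the experiments and cannot be told apart. Cell content differed as well. The mean macrophage sum was 23.4 FPKM in saline, 235.8 in loxP/loxP and 536.2 in LPS at 10 mg/kg. For the leukocyte sum these means were 141.3, 525.9 and 1274 FPKM. The endothelial sum, at 4040, 2530 and 2664 FPKM, did not lie between in loxP/loxP. The part of these cells in the levels was not tested.

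Within the groups, libraries that were high in one of these genes tended to be high in certain others. Likeness was measured as Pearson's r of the deviations of log2(FPKM + 1) from the group mean over all 16 libraries, as a description with no test, since genes of one library share its depth and cell content. Among pairs of the 10 genes, the closest were Fth1 with Ftl1 (r = 0.90), Hmox1 with Steap4 (0.88) and Slc40a1 with Steap4 (0.88). The farthest were Slc40a1 with Slc39a14 (-0.42) and Slc11a1 with Aco1 (-0.41). Saline 1 was far from the other saline libraries for Slc11a1 (8.71 against 0.960 to 1.51 FPKM), Fth1 and Steap4. It weighs heavily in r for such genes, here and below, and no r without it is given.

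Out of 7366 genes whose mean reached 5 FPKM in each table, those most like Slc11a1 included Igsf6 (r = 0.98) and Fos (0.98). Hmox1 was nearest to Agpat2 (0.95), Cd302 (0.92) and the macrophage marker Cd68 (0.92). Fth1 was nearest to Wfdc21 (0.96), Batf (0.95) and Gm5483 (0.94), and Ftl1 to Ube2f (0.98), Ctsz (0.96) and Marcksl1 (0.95). For Tfrc the nearest were Nfam1 (0.91), Lrrfip1 (0.91) and Gm14548 (0.91). Slc39a14 was nearest to Slc12a2 (0.93), Hif1a (0.92) and Nuak2 (0.82). Steap4 was nearest to Rab44 (0.91), Hmox1 (0.88) and Slfn1 (0.88), and Slc40a1 to Steap4 (0.88), Chil3 (0.86) and F7 (0.85). The weakest likeness was found for Aco1, with Crat (0.85), Nomo1 (0.83) and Impa1 (0.81), and for Slc11a2, with Trit1 (0.80) and Tmem86a (0.78).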

How the data were processed

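Reads from a NovaSeq instrument were aligned to GRCm38/mm10 (HISAT2 2.0.5) and counted per gene (featureCounts 1.5.0-p3) by the authors, who deposited FPKM with each gene's length. The annotation release and strandedness are not given in the sources used here. FPKM times length came in steps, taken as 1 read, and gave whole reads for 100.0% of values (within 0.01 reads, or 1e-05 of the value where that is more). The depths quoted are sums of these reads. Reads are not independent molecules, as no molecular identifiers were used.

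The deposited FPKM were already close to median-of-ratios scaling (factors within 0.182% of 1) and were divided by these factors. Then log2(FPKM + 1) was compared with limma (3.58.1, R 4.3.3, lmFit and eBayes with trend) within each experiment, for the genes whose mean there reached 0.5 FPKM, with Benjamini-Hochberg adjustment over all genes tested. Calls were made at an adjusted p at or under 0.05, with and without a log2 fold change of 1 or more in size. Whether groups were apart was read from the deposited FPKM. Ratios were compared by exact permutation tests. The fits were tested on simulated data. Permutation tests used scipy 1.17.1, figures matplotlib 3.10.9, and tables numpy 2.4.6 with pandas 2.3.3 under Python 3.11.15.

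The 10 genes, the 51 other iron genes and the marker lists were chosen with earlier results of these data known. The text names all 10. Of the others it names, for each role, the 2 largest rises and 2 largest falls called between saline and LPS, and the 3 with the smallest p between the genotypes. For each of the 10 it names the 3 genes of highest likeness. Some genes that these rules select are not reported here. Ireb2, Hmox2, Ncoa4, Ftmt, Smad7, Id1, Emcn and Kdr were named after their values were seen or for a ratio. Cd163 is in a marker list and in the scavenging list. Libraries of the genotype comparison with the same number in their titles deviated together weakly (r = 0.25, 0.18 and 0.19). With 3 libraries against 3 this cannot establish that the numbers pair them, and no label says what they share. The pair counts and the replicate block of that comparison assume such a pairing.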

Additional observations from a re-analysis of the deposited data

Results flagged for a closer look

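Of 82 sets of values examined (the 10 genes, the other iron genes named, the ratios and the marker sums, each in saline and in LPS), 11 held a library whose gap to the nearest other library, as a share of the range of its group, was above Dixon's 95% critical value for that group size. Chance gives about 1 in 20, or 4.1 of 82. In 8 of the 11 the library was saline 1, and the sets are not independent of each other. Saline 1 was high for Fth1 (1167 FPKM, others at most 678), Slc11a1 (8.71 FPKM, others at most 1.51), Steap4 (1.56 FPKM, others at most 0.568), Hp (94.3 FPKM, others at most 18.1), Fbxl5 (15.2 FPKM, others at most 7.53), Alas1 (21.9 FPKM, others at most 13.3) and Smad6 (323.1 FPKM, others at most 159.6). It was also high for the log2 ratio of Slc11a1 to Slc11a2 (1.35, others at most -1.10). It is the shallowest library, with 13478726 reads on genes, and its endothelial, leukocyte, macrophage and neutrophil sums were each the highest of the saline group. The part of these in its values was not tested.

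LPS 1 was high for Tfrc (7.24 FPKM, others at most 5.21) and Hamp (3.58 FPKM, others at most 1.495). It had the highest leukocyte and macrophage sums and the lowest endothelial sum of the LPS libraries. Saline 3 was low for Cp (2.35 FPKM, others at least 4.13).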

How the results depend on the processing

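All 10 iron handling genes kept a log2 fold change above 0 between saline and LPS under every alternative that could be run, and Aco1 and Slc40a1 were the 2 whose call at an adjusted p of 0.05 was lost under some. Tfrc and Slc40a1 gave no value at a minimum mean of 5 FPKM. Leaving out 1 library gave 0.86 to 1.05 for Tfrc, 2.81 to 3.19 for Fth1, 2.20 to 2.45 for Ftl1, 0.45 to 0.54 for Slc40a1, 4.58 to 4.85 for Hmox1, 4.89 to 5.66 for Slc11a1, 0.78 to 0.95 for Slc11a2, 1.31 to 1.63 for Slc39a14, 2.80 to 3.08 for Steap4 and 0.23 to 0.35 for Aco1. With the fold limit 6 of the 10 were called (6 to 7 when 1 library was left out) and 10 with no fold limit. All were higher, where 11.9% and 29.5% of all genes were. Of all genes 2779 were called with the fold limit (1768 higher, 1011 lower) and 2593 to 3053 with 1 library left out. The count was 7928 with no fold limit, 4171 with a pseudocount of 0.1, 4363 with limma-voom and 4578 with scaling on the endothelial markers, which gave 4374 higher and 204 lower. With scaling on total reads 1378 were higher and 1453 lower, and with quantile normalization 1366 and 1326. Of the 41 other iron genes tested 11 were called (10 to 13 with 1 library left out), against 18.7% of all genes. With no fold limit 23 were called, against 53.2% of all genes. With scaling on the endothelial markers 21 were called, where 4578 of 15009 genes were.

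With 1 library left out, the differences of the ratios were 0.60 to 0.77 for Fth1/Ftl1, 0.38 to 0.56 for Tfrc/Slc40a1, 3.99 to 4.87 for Slc11a1/Slc11a2, 0.29 to 0.44 for Aco1/Ireb2 and 3.42 to 3.79 for Hmox1/Hmox2. With a pseudocount of 0.1, Tfrc/Slc40a1 was 0.48 and no longer passed. The cause of these changes was not tested.

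Same-numbered saline and LPS libraries did not deviate together (r = 0.10, -0.16, -0.21 and -0.12), so no pairing by number was seen. A replicate block over 4 pairs called 2990 genes and 7 of the 10 with the fold limit, and 8 of the 10 without it. Of the 15013 genes tested in the block, 1926 were higher with the fold limit and 3418 without it. Slc40a1 was at 0.50 (limma adjusted p = 0.0608) and Aco1 at 0.33 (0.139). The ratios in the block were 0.67, 0.51, 4.39, 0.41 and 3.49 in the order above, none past 0.05, since the smallest p of an exact sign-flip test over 4 pairs is 0.125. Between the genotypes a replicate block called 0 genes and changed no call.

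Between the genotypes 0 genes were called under each alternative run. With 1 library left out, log2 fold changes were -0.46 to -0.20 for Tfrc, -0.52 to -0.02 for Fth1, -0.55 to -0.20 for Ftl1, -0.40 to -0.01 for Slc40a1, -0.56 to 0.21 for Hmox1, -0.54 to 0.09 for Slc11a1, 0.02 to 0.21 for Slc11a2, 0.23 to 0.86 for Slc39a14, -0.66 to 0.04 for Steap4 and 0.07 to 0.14 for Aco1. Without iΔEC/iΔEC 1 the sign turned for Hmox1 (0.21), Slc11a1 (0.089) and Steap4 (0.03), and without loxP/loxP 3 for Steap4 (0.042). With scaling on the endothelial markers, which moved the median of all genes to -0.19, Slc11a2 and Aco1 were at -0.12 each, or 0.07 above that median. The ratios ranged from -0.058 to 0.20 for Fth1/Ftl1, -0.19 to 0.020 for Tfrc/Slc40a1, -0.61 to -0.12 for Slc11a1/Slc11a2, -0.068 to 0.045 for Aco1/Ireb2 and -0.65 to 0.24 for Hmox1/Hmox2. Their sign turned without loxP/loxP 1 (Aco1/Ireb2 0.04) or 2 (Fth1/Ftl1 -0.058), and without iΔEC/iΔEC 1 (Aco1/Ireb2 0.045, Hmox1/Hmox2 0.24), 2 (Fth1/Ftl1 -0.05) or 3 (Fth1/Ftl1 -0.03, Tfrc/Slc40a1 0.020). The cause was not tested. Among the 10 genes, the lowest read counts in a saline library were those of Steap4 (29 to 65), Slc11a1 (70 to 427) and Slc40a1 (160 to 260).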
